A study of Mus musculus with 4 samples.

Results

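The regions described here are stretches of open chromatin that were found in all 4 libraries of the study and that stood higher in the siChst7 libraries than in the siControl libraries when the peaks of each library were put in order of their significance. Peaks of the 4 libraries on chromosomes 1 to 19 and X were merged wherever they shared at least 1 bp, which gave 90202 regions, and 55907 of them held a peak in every library. In each library a region took the percentile of its highest −log10 q among all peaks of that library, so that 100 is the most significant peak. The members were chosen by these measured values: the lower of the siChst7 percentiles had to exceed the higher of the siControl percentiles by at least 10 points, a difference called the rank gap. The rule kept 580 regions, which is 1.04% of the shared regions. Every comparison of ranks, reads or enrichment between siChst7 and siControl at these regions is therefore a description and carries no test.

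The groups were siChst7 (2 libraries) and siControl (2 libraries), siRNA-transfected cells of the mouse embryonic fibroblast line iMGT-Myh6-eGFP-MEF. Cells of both groups carried the doxycycline-inducible factors Mef2c, Gata4 and Tbx5 (MGT) and received doxycycline at 1 µg/mL, with the siRNA given the day before, and all were collected at day 1 of induction. The series concerns how fibroblast identity is kept during cardiac reprogramming. All libraries come from 1 engineered line, no library without induction was used here, and although the labels call the replicates biological they do not say whether they came from separate cultures, so the spread between them may be technical.

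Chst7 encodes a carbohydrate sulfotransferase of the Golgi that adds sulfate to chondroitin, a glycosaminoglycan chain of the proteoglycans that fibroblasts lay down in their matrix. Mef2c, Gata4 and Tbx5 are heart transcription factors which, expressed together, can turn fibroblasts towards a cardiomyocyte-like state, and closing of fibroblast enhancers and opening of heart enhancers accompany that change. ATAC-seq uses the transposase Tn5 to cut accessible DNA, so the number of reads at a site measures how often it was open across the cells. Promoters rich in CpG dinucleotides are open in most cell types, whereas distal elements and CpG-poor promoters are the more cell-type-specific part of the accessible genome. In a bulk library, a site open in more of the cells and a site more open in each cell cannot be told apart.

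Before any account of single regions, the number of members has to be set beside the other ways of dividing the 4 libraries into pairs. In the direction opposite to the members, with both siControl percentiles at least 10 points above both siChst7 percentiles, there were 1489 regions (2.66%), the regions ranked lower with siChst7. When the libraries were paired by replicate number, replicates 1 stood above replicates 2 at 729 regions (1.3%) and replicates 2 above replicates 1 at 208 (0.372%). When they were crossed, siChst7 replicate 1 with siControl replicate 2 stood above the rest at 1039 regions (1.86%), and siChst7 replicate 2 with siControl replicate 1 at 121 (0.216%). Both directions together, the siRNA split gave 2069 regions, against 937 for the replicate numbers and 1160 for the crossed pairs. The 580 members thus lie between the counts that the other splits gave in a single direction, 121 and 1039, while the 1489 regions ranked lower lie above them. No test was made, since the members were chosen by these ranks, and with 2 libraries against 2 an exact two-sided permutation test cannot give a p under 0.333.

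**Figure D1:**
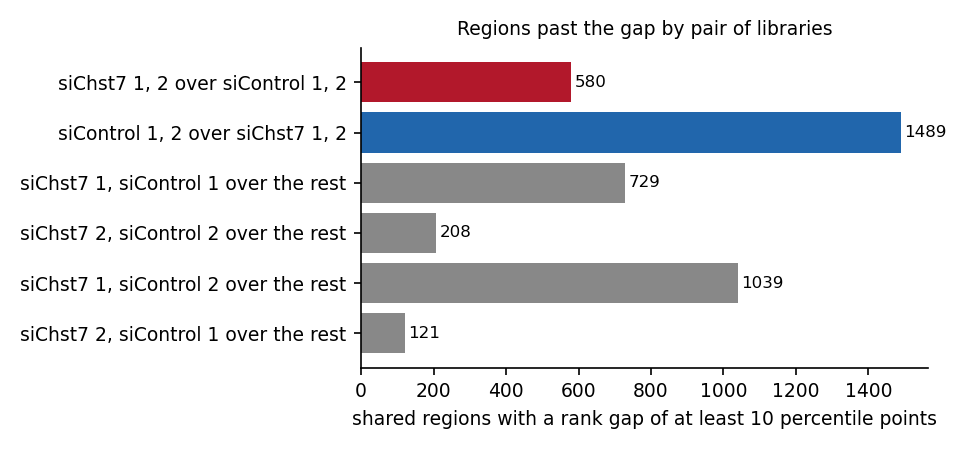
Number of shared regions (horizontal axis) with a rank gap of at least 10 percentile points in each direction of the 3 ways to divide the 4 libraries into pairs. The bar for siChst7 over siControl (580) lies between the bars of the other splits, whose counts run from 121 to 1039, and the bar for siControl over siChst7 (1489) is the longest.

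The balance between regions ranked higher and lower depended on how the percentiles were taken. As selected, 580 against 1489 regions made 28.0% of the regions past the gap higher with siChst7. With percentiles over the shared regions alone there were 1225 higher and 1071 lower, or 53.4% higher, and with each list cut to its top 66079 peaks there were 1368 higher and 862 lower, or 61.3% higher. Leaving out siChst7 replicate 2 gave 3056 higher and 2859 lower, or 51.7% higher. In the other settings tried the lower regions stayed in the majority, with 13.3% higher (without siChst7 replicate 1) to 38.8% higher (without siControl replicate 2). The library siChst7 replicate 2 listed 66079 peaks on these chromosomes, against 73806 to 75593 in the other 3. Its genome-wide background was 0.773 times that of siControl replicate 1, against 1.06 for siChst7 replicate 1 and 0.948 for siControl replicate 2. The median percentile of the shared regions was 62.1 and 57.4 in siChst7 and 61.8 and 62.6 in siControl. Since the shift of the percentiles moves the whole balance, no direction of accessibility across the genome is read from these counts, and the members are described by what they are.

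The members were middle- to low-ranking peaks rather than strong ones. Their mean percentile over the 4 libraries had a median of 36.4 and ran from 6.01 to 76.5, against a median of 60.4 for all shared regions. The members made up 2.73% of the shared regions with a mean percentile between 20 and 30, 1.10% of those between 50 and 60, and none of the 7090 between 80 and 90 or the 7081 above 90, where a gap of this size leaves little room. Their median percentile was 47.4 and 45.8 in siChst7 and 26.5 and 26.95 in siControl. The rank gap had a median of 12.5 and a maximum of 38.1, with 149 members at 15 or more and 44 at 20 or more. For 564 of the 580 members (97.2%) each library held exactly 1 peak in the region, so their ranks did not come from merged neighbours.

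**Figure D2:**
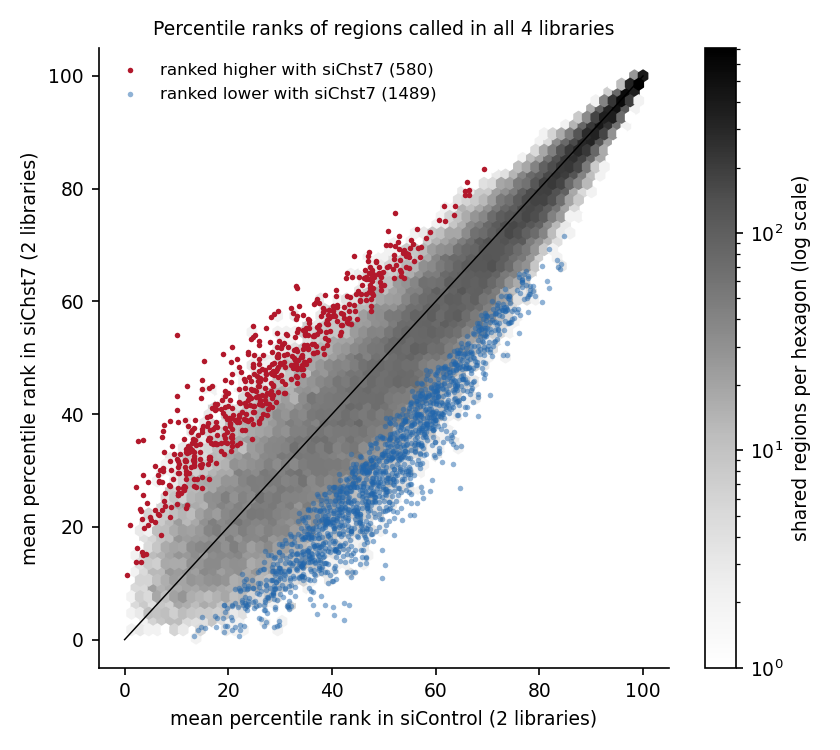
Mean percentile rank of each region called in all 4 libraries in siChst7 (vertical axis) against siControl (horizontal axis), with 2 libraries per mean, grey hexagons for all 55907 shared regions on a log scale of counts, red points for the 580 ranked higher with siChst7 and blue points for the 1489 ranked lower. The red points lie left of the diagonal mostly at siControl means under 60, and both sets narrow towards the top ranks.

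The deposited values also allowed the number of reads under each summit to be worked out, which puts the ranks back into counts. The deposited fold enrichment and −log10 p of a peak are both functions of the whole number of reads at the summit and the local background, and solving the pair matched all 580 members in each of the 4 libraries within 0.001. The members had a median of 38 and 31 reads under the summit in siChst7 and 24 and 23 in siControl. Both siChst7 libraries held more reads than both siControl libraries at 568 members (97.9%), against 4.58% of all shared regions. The reads were solved from the same peaks whose significance chose the members, so this excess follows from the choice. Divided by each library's genome-wide background, the medians were 18.7 and 20.9 in siChst7 against 12.5 and 12.7 in siControl. The ratio of the siChst7 geometric mean to the siControl geometric mean of these scaled reads had a median of 1.55. Its quartiles were 1.45 and 1.67 and its range 1.17 to 2.76. The same ratio had a median of 0.964 over all shared regions.

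The other measures deposited with the peaks went the same way at the members. For fold enrichment and −log10 q this follows from the choice of members on significance. The median fold enrichment was 8.15 and 8.47 in siChst7 and 5.84 and 5.81 in siControl, and it was higher in both siChst7 libraries at 579 of the 580 members, against 11.2% of all shared regions. The median −log10 q was 22.8 and 20.1 in siChst7 and 11.7 and 10.8 in siControl. Peak width had not entered the rule: the median was 500 and 433.5 bp in siChst7 and 401.5 and 411 bp in siControl, and both siChst7 peaks were wider than both siControl peaks at 206 members (35.5%), against 13.4% of all shared regions and 14.2% of those of like rank, that is with a mean percentile in the central range of the members. The local background around the summit would mark a broad rise of the neighbourhood. It was higher in both siChst7 libraries at 350 of the 580 members and lower in both at 18. Over the 55907 shared regions the counts were 13246 and 14051, and over the 26420 of like rank 7157 and 5189. Width and local background come from the same peaks as the ranks, so neither is taken as independent of the selection. How far the selection accounts for them was not tested.

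Shared regions next to members had percentile differences near those of all other regions. Within 10 kb of a member there were 475 other shared regions, next to 297 of the members, and their median percentile difference of siChst7 minus siControl was -1.39. At 25, 50 and 100 kb the medians were -0.72, -0.98 and -1.18, against -1.30 for all 55327 shared regions that were not members. Of the 4601 neighbours within 100 kb, 117 (2.54%) were themselves ranked lower with siChst7, against 2.69% of all non-members. Members lay within 10 kb of each other in 4 pairs and within 50 kb in 16. They occurred on each of chromosomes 1 to 19 and X, from 0.592% of the shared regions of chromosome 4 to 1.46% of those of chromosome 13. As judged by neighbouring shared regions, the members were thus single sites spread over the genome.

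The members lay far from gene ends, a property the rule did not use. Of the 580 members, 21 (3.62%, exact 95% binomial interval 2.25% to 5.48%, counting error only) lay no more than 1 kb from a protein-coding gene end. The share was 14.0% (209 of 1489) for the regions ranked lower with siChst7 and 22.0% (12285 of 55907) for all shared regions. Shared regions near gene ends tend to rank high, so the fitting yardstick is the 26420 shared regions of like rank, with a mean percentile between 16.3 and 61.3, and of these 10.7% lay within 1 kb of a gene end. The same order held in the bins of rank with most members: between 20 and 30, 3.70% of members against 9.54% of shared regions, between 30 and 40, 5.44% against 9.93%, and between 40 and 50, 1.60% against 10.2%. Regions are not replicates of a condition, and the difference between these shares was not tested.

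With distance from a gene end, the share of shared regions that were members went up at each step. It was 0.171% within 1 kb, 0.776% from 1 to 5 kb, 1.00% from 5 to 20 kb, 1.38% from 20 to 50 kb, 1.77% from 50 to 100 kb and 1.96% beyond 100 kb. The regions ranked lower showed another profile, with 1.70% within 1 kb and between 2.26% and 3.21% in every bin beyond it. Accordingly the median distance of the members to the nearest gene end was 29.4 kb, against 13.3 kb for the regions ranked lower, 17.4 kb for shared regions of like rank and 11.9 kb for all shared regions. Beyond 100 kb from any protein-coding gene end lay 111 members (19.1%), against 8.60% of the regions ranked lower and 12.7% of shared regions of like rank. Inside protein-coding genes lay 307 members (52.9%), close to the 53.2% of shared regions of like rank. Inside genes of at least 100 kb lay 169 (29.1%), against 23.0% of the regions ranked lower and 25.8% of shared regions of like rank.

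**Figure D3:**
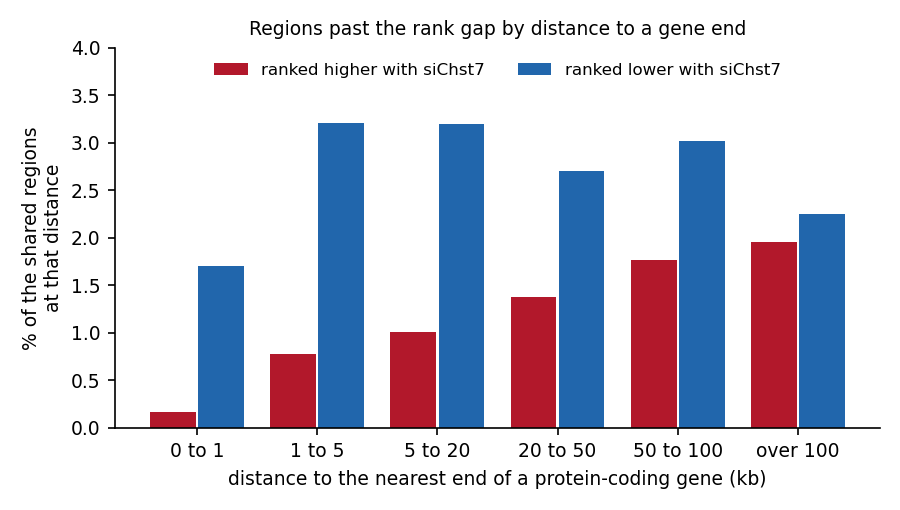
Share of the shared regions (vertical axis, percent) that were ranked higher (red, left) or lower (blue, right) with siChst7, by distance to the nearest end of a protein-coding gene in kb (horizontal axis). The share ranked higher climbs from 0.171% within 1 kb to 1.96% beyond 100 kb, while the share ranked lower is 1.70% within 1 kb and 2.26% to 3.21% farther away.

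Few members touched a promoter, and most of those promoters held few CpG dinucleotides. RefSeq promoter windows on GRCm38.p6, the assembly of mm10, run from 250 bases before to 50 bases after each listed start, and 13 members (2.24%) overlapped one, against 104 regions ranked lower (6.98%), 5.45% of shared regions of like rank and 16.7% of all shared regions. The 13 promoters belonged to 5 protein-coding genes (Scml2, R3hdm2, Tigd4, Sh2d1b1 and Gpr35) and 8 long noncoding RNA genes. The sequences below are the 5 protein-coding promoters, the 2 noncoding ones with the largest rank gap, and for contrast the promoter of Nab1. The Nab1 promoter was touched by a region ranked lower and is an example only. Its 46 CpG lie above the median of 20 for promoters touched by regions ranked lower. The sequences are printed 5′ to 3′ on the strand of the gene, with each CpG in capitals.
Scml2, chrX:161162500-161162799, plus strand: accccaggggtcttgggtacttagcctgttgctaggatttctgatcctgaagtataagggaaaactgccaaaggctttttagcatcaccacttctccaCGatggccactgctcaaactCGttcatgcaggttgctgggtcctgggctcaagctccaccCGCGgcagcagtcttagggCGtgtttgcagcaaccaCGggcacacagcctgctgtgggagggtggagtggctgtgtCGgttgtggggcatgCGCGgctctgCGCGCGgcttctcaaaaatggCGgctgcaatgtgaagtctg
R3hdm2, chr10:127420617-127420916, plus strand: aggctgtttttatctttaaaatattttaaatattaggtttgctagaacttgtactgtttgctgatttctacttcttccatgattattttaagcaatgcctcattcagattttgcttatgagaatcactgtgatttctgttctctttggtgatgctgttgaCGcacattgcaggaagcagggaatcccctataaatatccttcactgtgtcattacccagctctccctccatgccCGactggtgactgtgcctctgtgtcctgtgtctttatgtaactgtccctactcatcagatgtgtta
Tigd4, chr3:84593324-84593623, plus strand: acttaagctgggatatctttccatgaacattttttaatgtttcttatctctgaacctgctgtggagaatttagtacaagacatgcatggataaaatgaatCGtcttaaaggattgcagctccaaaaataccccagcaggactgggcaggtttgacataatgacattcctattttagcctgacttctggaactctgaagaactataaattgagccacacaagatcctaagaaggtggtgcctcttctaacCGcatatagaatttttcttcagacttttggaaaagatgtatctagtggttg
Sh2d1b1, chr1:170277068-170277367, plus strand: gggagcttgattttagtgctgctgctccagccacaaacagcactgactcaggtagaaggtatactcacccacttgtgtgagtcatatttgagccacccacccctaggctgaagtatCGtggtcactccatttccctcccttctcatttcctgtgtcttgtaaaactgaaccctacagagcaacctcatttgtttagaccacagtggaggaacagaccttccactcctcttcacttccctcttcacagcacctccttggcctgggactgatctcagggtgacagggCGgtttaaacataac
Gpr35, chr1:92978653-92978952, plus strand: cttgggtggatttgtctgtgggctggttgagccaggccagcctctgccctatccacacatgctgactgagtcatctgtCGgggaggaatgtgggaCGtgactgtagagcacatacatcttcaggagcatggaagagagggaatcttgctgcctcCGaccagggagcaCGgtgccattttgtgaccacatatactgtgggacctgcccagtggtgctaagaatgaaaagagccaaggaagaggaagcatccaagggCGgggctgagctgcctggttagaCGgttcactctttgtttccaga
4930529N20Rik, chr13:35167755-35168054, minus strand: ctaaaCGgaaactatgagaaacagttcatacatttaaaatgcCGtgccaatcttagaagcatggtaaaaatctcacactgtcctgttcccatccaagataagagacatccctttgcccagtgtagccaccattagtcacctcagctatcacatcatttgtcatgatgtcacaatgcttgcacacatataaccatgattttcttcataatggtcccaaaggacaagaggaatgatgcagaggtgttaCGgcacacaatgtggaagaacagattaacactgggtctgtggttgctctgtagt
Gm13387, chr2:25145438-25145737, minus strand: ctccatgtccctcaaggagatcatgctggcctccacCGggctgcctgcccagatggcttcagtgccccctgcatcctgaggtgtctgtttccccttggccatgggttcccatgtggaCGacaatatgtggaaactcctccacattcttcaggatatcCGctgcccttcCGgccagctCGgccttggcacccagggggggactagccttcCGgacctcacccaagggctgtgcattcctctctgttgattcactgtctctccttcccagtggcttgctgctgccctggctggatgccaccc
Nab1, chr1:52500399-52500698, minus strand: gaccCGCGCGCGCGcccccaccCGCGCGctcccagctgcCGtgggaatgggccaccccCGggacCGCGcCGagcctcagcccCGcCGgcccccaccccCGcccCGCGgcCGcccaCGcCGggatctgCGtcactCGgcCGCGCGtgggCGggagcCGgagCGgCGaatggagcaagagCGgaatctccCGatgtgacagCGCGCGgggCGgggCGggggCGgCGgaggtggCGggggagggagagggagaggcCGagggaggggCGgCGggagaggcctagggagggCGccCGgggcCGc

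The capitals in these windows number 13 CpG dinucleotides for Scml2, 6 for Gpr35 and for Gm13387, 3 for 4930529N20Rik and 2 each for R3hdm2, Tigd4 and Sh2d1b1, against 46 for Nab1. Over the 13 genes the median was 4 CpG per 300 bases (range 2 to 13). It was 20 over the 109 genes touched by regions ranked lower, 15 over the 1518 genes touched by shared regions of like rank, 21 over the 10554 genes touched by any shared region and 7 over all 26794 genes with a window. At least 10 CpG were found in 1 of the 13 promoters (7.69%), against 67.9% for regions ranked lower, 62.7% for shared regions of like rank and 85.2% for all shared regions. GC content followed, with a median of 50.0% for the members' promoters, against 62.7% for those ranked lower and 59.7% at like rank. The kind of gene moved with this difference: 8 of the 13 genes were noncoding, against 25 of 109 for regions ranked lower and 380 of 1518 at like rank. Among the noncoding genes alone the median was 4.5 CpG, close to the 5 for regions ranked lower and 6 at like rank. Among the protein-coding genes alone it was 2 CpG over 5 genes, against 22 over 84 genes for regions ranked lower and 18 over 1138 genes at like rank, so the contrast rests on 5 promoters.

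**Figure D4:**
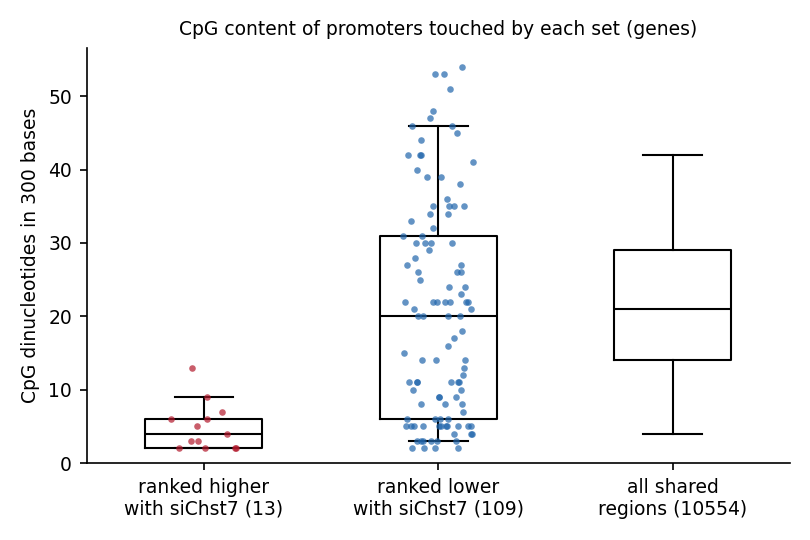
Number of CpG dinucleotides in the 300-base promoter window (vertical axis) of genes whose window was touched by regions ranked higher with siChst7 (13 genes), ranked lower (109) or any shared region (10554). Most promoters of the first set lie under 10 CpG with a median of 4, while the other sets have medians of 20 and 21.

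Short motifs were counted in the same windows on both strands, as letters only. TGTGGT, the core bound by RUNX factors, was present in 6 of the 13 promoters (46.2%) and in 16.8% of all 26794 promoters. GGAATG, bound by TEAD factors, was present in 5 (38.5%, against 14.6% of all promoters), and GGGCGG, bound by SP and KLF factors, also in 5 (38.5%, against 36.2%). TGANTCA, the AP-1 site, was present in 3 (23.1%, against 7.98%), and AGATAA, bound by GATA factors, in 3 (23.1%, against 11.4%). CCAAT, TTGCNNAA (C/EBP) and CAGCTG (an E-box) were present in 2 each (15.4%), against 38.1%, 10.8% and 16.2% of all promoters. CCGGAAG (ETS) and TAAAAATA (MEF2) were each present in 1, against 9.20% and 2.61% of all promoters. TGACGTCA (CRE), AGGTGTGA (T-box), GCGCATGCG (NRF1), AGGTGGCNC (CTCF) and AAGATGGCG (YY1) were not among the letters of these 13 windows, and they occurred in 1.28% to 1.89% of all promoters. None of these strings is part of another, a match is not a bound site, and 13 windows are too few for the shares to be compared.

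The values at these promoters were modest. Tigd4, a gene derived from a DNA transposase, had 70 and 49 reads under the summit in siChst7 and 40 and 37 in siControl at chr3:84592686-84593620. Scml2, a Polycomb-group gene of the X chromosome, had 25 and 22 reads in siChst7 and 18 and 15 in siControl at chrX:161162609-161163230. The siChst7 counts were above the siControl counts at both promoters, as the choice of members favours, and exact 95% Poisson intervals of the groups overlapped at both. At Scml2 the intervals were 16.2 to 36.9 and 13.8 to 33.3 in siChst7, against 10.7 to 28.4 and 8.40 to 24.7 in siControl. At Tigd4 the interval of siChst7 replicate 2, 36.3 to 64.8, overlapped those of siControl, 28.6 to 54.5 and 26.1 to 51.0. R3hdm2 had 24 and 19 reads in siChst7 and 12 and 15 in siControl at chr10:127420711-127421190, over a start inside the gene 40.4 kb from its nearer end. Sh2d1b1, an adaptor of lymphocyte receptors, had 28 and 20 reads in siChst7 and 17 and 17 in siControl at chr1:170276784-170277566. Gpr35, a G-protein-coupled receptor gene, had 38 and 31 reads in siChst7 and 25 and 29 in siControl at chr1:92978575-92979040. The summits lay within the printed window in all 4 libraries at R3hdm2, Sh2d1b1 and Gpr35, 49 to 193 bases after the start at Scml2, and 182 to 635 bases before it at Tigd4. The region over Nab1, a corepressor gene, at chr1:52500498-52501090 had 26 and 22 reads in siChst7 and 46 and 46 in siControl.

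The 12 members with the largest rank gap all lay more than 10 kb from any protein-coding gene end. The largest gap, 38.1 points, belonged to chr18:69781976-69782665, a region 94.0 kb from the end of Tcf4, an E-protein transcription factor gene. Its summit held 35 and 31 reads in siChst7 (exact 95% Poisson intervals 24.4 to 48.7 and 21.1 to 44.0) and 15 and 11 in siControl (8.40 to 24.7 and 5.49 to 19.7). The siChst7 counts lay above the siControl counts, as at 97.9% of the members. In raw reads the intervals of both siChst7 libraries overlapped that of siControl replicate 1. Scaled by background, the interval of siChst7 replicate 2, 14.2 to 29.7, lay above that of siControl replicate 1, 4.38 to 12.9. The scaled interval of siChst7 replicate 1 still overlapped that of siControl replicate 1. The percentiles of this region were 52.8 and 55.3 in siChst7 and 14.7 and 5.61 in siControl. The next region, chr11:86246679-86247522 inside Ints2, a subunit gene of the Integrator complex, held 26 and 21 reads in siChst7 and 9 and 11 in siControl. At chr17:30479931-30480352, inside Btbd9, the counts were 33 and 32 in siChst7 and 17 and 16 in siControl. In all 12 regions both siChst7 counts were above both siControl counts, as the choice by the largest gap favours.

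The nearest gene of a distal site need not be the one it acts on, and it serves here as a name for the place. The region chr1:35777530-35777988 lay 290 kb from Hs6st1, a heparan sulfate 6-O-sulfotransferase gene, and held 27 and 27 reads in siChst7 and 15 and 14 in siControl. The region chr16:25990690-25991360 lay inside P3h2, a collagen prolyl 3-hydroxylase gene, and held 29 and 24 reads in siChst7 and 12 and 15 in siControl. The region chr1:71880420-71880984 lay 227 kb from Fn1, the fibronectin gene, and held 45 and 29 reads in siChst7 and 19 and 17 in siControl. The region chr8:71637180-71637968 lay inside Unc13a, a synaptic vesicle priming gene, 12.3 kb from Colgalt1, a collagen galactosyltransferase gene, and held 52 and 32 reads in siChst7 and 22 and 21 in siControl. The siControl libraries were within 3 reads of each other at each of these 4 sites. In raw reads the siChst7 libraries differed most at Fn1 and Colgalt1, but these libraries differ in background. Scaled by background, siChst7 replicates 1 and 2 had 22.2 and 19.6 at Fn1 and 25.6 and 21.6 at Colgalt1. They had 14.3 and 16.2 at P3h2 and 13.3 and 18.2 at Hs6st1, where the scaled values differed most.

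At chr8:61791273-61791648, inside the actin-associated Palld, the counts were 30 and 27 in siChst7 and 17 and 16 in siControl. At chr16:84661889-84662345, 55.9 kb from the mitochondrial ribosome gene Mrpl39, they were 25 and 19 in siChst7 and 10 and 11 in siControl. At chr1:54888271-54888916, inside Ankrd44, they were 35 and 26 in siChst7 and 18 and 14 in siControl. The region 10.8 kb from the olfactory receptor gene Olfr47, chr6:43247408-43248020, held 46 and 37 reads in siChst7 and 24 and 24 in siControl. The region 150 kb from Atp6ap1l, chr13:90733267-90733755, held 39 and 38 in siChst7 and 21 and 22 in siControl. Counts this low leave wide intervals, which the plot of these 12 regions shows.

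**Figure D5:**
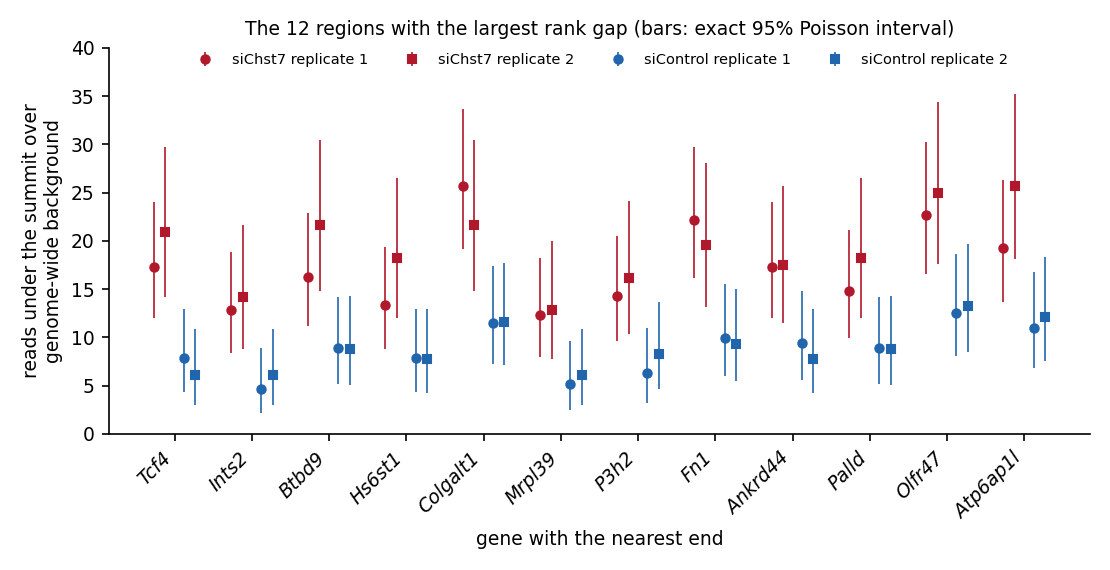
Reads under the summit divided by the library's genome-wide background (vertical axis) at the 12 regions with the largest rank gap, named by the gene with the nearest end (horizontal axis), for each siChst7 library (red) and each siControl library (blue), with exact 95% Poisson intervals as bars. Both red points lie above both blue points at each of the 12 regions, from 17.3 and 20.9 against 7.82 and 6.05 at Tcf4 to 19.2 and 25.6 against 11.0 and 12.1 at Atp6ap1l.

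Of the 21 members within 1 kb of a protein-coding gene end, the 8 with the largest gap lay at Lekr1, Upk3bl, Crygd, Rtn3, Slc36a1, Abhd17a, Tigd4 and Pcdh7. Near Lekr1, at chr3:65836897-65837273, the counts were 23 and 21 reads in siChst7 and 11 and 13 in siControl. At Upk3bl, a uroplakin-like gene, the region chr5:136076285-136077412 held 37 and 30 reads in siChst7 and 21 and 19 in siControl. At Crygd, a lens crystallin gene, chr1:65060595-65061064 held 22 and 19 reads in siChst7 and 15 and 13 in siControl. The remaining 5 had more reads and smaller gaps. At Rtn3, a reticulon of the endoplasmic reticulum, chr19:7425379-7425837 held 55 and 38 reads in siChst7 and 34 and 31 in siControl. At Slc36a1, an amino acid transporter gene, chr11:55236834-55237141 held 38 and 38 reads in siChst7 and 29 and 28 in siControl. At Abhd17a, a depalmitoylase gene, and at Pcdh7, a protocadherin gene, the raw counts of the groups came closest: 73 and 59 in siChst7 against 55 and 57 in siControl, and 161 and 116 in siChst7 against 130 and 121 in siControl. At Pcdh7 siChst7 replicate 2 thus held fewer reads than either control, and its scaled value of 78.3 was above their 67.8 and 66.6.

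Listed genes of the study's pathways were nearest to few members. Of 26 gene lists covering glycosaminoglycan synthesis, fibroblast and cardiac identity, signalling and other cell types, 14 had at least 1 member whose nearest gene end within 100 kb belonged to the list. Together the lists accounted for 24 members among 2516 shared regions (0.954%), against 445 of 47716 (0.933%) for regions nearest to unlisted genes and 111 of 5675 (1.96%) for regions with no gene end within 100 kb. The share near listed genes was thus close to the 1.04% of all shared regions. The median percentile difference of all shared regions near listed genes was -1.16, against -1.33 near unlisted genes. The highest count in a list was 3 members, reached by glycosaminoglycan synthesis (3 of 199 shared regions, 1.51%), fibroblast matrix (3 of 205, 1.46%) and Wnt (3 of 152, 1.97%). Each of these shares rests on 3 regions. The lists do not hold every gene of a pathway, so each count stands for the listed genes only.

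In glycosaminoglycan synthesis, the pathway in which Chst7 works, the 3 members lay inside Ust, Ext1 and Hs6st2, and 2 of the 199 shared regions were ranked lower. Ust transfers sulfate to the uronic acid of chondroitin and dermatan chains, and the region chr10:8223531-8224197 held 47 and 36 reads in siChst7 and 31 and 27 in siControl. Ext1 polymerises heparan sulfate, and chr15:53125580-53126086 held 68 and 56 reads in siChst7 and 41 and 47 in siControl. Hs6st2 sulfates heparan chains, and chrX:51407103-51407695 held 51 and 40 reads in siChst7 and 37 and 27 in siControl. The siChst7 counts exceeded the siControl counts in all 3, as the choice of members favours, by 3 reads at Hs6st2 between the closest libraries. Of proteoglycan and hyaluronan genes, Has2, a hyaluronan synthase, had 1 member 26.6 kb away, chr15:56721121-56721892, with 81 and 60 reads in siChst7 and 46 and 50 in siControl. It was 1 of 90 shared regions of that list, of which 3 were ranked lower. Near Chst7 itself there were 2 shared regions and 0 members. ATAC-seq peaks do not measure Chst7 transcripts, so the knockdown was not checked here.

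Fibroblast genes had members at a distance. Col1a2, a chain of type I collagen, had 1 member 15.4 kb away, chr6:4489981-4490197, with 64 and 44 reads in siChst7 and 32 and 37 in siControl. Col6a3, a chain of type VI collagen, had 1 member 73.5 kb away, chr1:90692863-90693328, with 33 and 22 reads in siChst7 and 19 and 18 in siControl. Thbs2, a matricellular thrombospondin, had 1 member 9.31 kb away, chr17:14703572-14704103, with 27 and 24 reads in siChst7 and 21 and 16 in siControl. The siChst7 counts were above the siControl counts at these 3 sites, as at 97.9% of the members, which follows from the choice by rank. Of the 205 shared regions near genes of the matrix list, 4 were ranked lower. In the fibroblast identity list, besides Tcf4, the collagen receptor kinase Ddr2 held a member, chr1:170015703-170016252, with 29 and 21 reads in siChst7 and 19 and 17 in siControl. Of the 176 shared regions of that list, 3 were ranked lower. Cald1, the actin-binding caldesmon gene, held a member at chr6:34637693-34638473 with 81 and 68 reads in siChst7 and 59 and 55 in siControl, 1 of 62 shared regions near smooth muscle and myofibroblast genes (1 ranked lower). Timp3, an inhibitor of matrix metalloproteases, was the nearest gene of a member inside Syn3, chr10:86406975-86407547. That member held 58 and 42 reads in siChst7 and 36 and 31 in siControl. It was 1 of 90 shared regions near listed matrix protease genes, of which 4 were ranked lower. Adamts16, described below with 2 members, was not on that list.

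Counts near listed signalling genes were as small as the share of all shared regions, 1.04%, would give. There were 2 members of 191 shared regions near listed TGF-beta and BMP genes (1.05%, 4 ranked lower) and 3 of 152 near listed Wnt genes (4 ranked lower). Near listed Notch genes there were 0 of 91 (3 ranked lower), and near listed YAP and TEAD genes 0 of 125 (0 ranked lower). These lists are not complete. They leave out Bmpr1b and Bmper of BMP signalling, Nrarp and Hey2 of Notch signalling and the YAP regulator Amot, each nearest to a member. Tgfbr3, the TGF-beta coreceptor betaglycan, was 26.99 kb from chr5:107078930-107079575, which held 31 and 26 reads in siChst7 and 22 and 18 in siControl. Smad3, a transducer of TGF-beta signals, held chr9:63725167-63725613 in its body, with 79 and 55 reads in siChst7 and 46 and 46 in siControl. The siChst7 counts were above the siControl counts at both sites, as the choice of members favours. In the Wnt list the members were nearest to Sfrp2 and Dkk3, secreted Wnt modulators, and Tcf7l2, a transcription factor of the pathway. They held 20 and 16 reads in siChst7 against 12 and 12 in siControl at Sfrp2, 48 and 34 against 33 and 29 at Dkk3, and 34 and 28 against 25 and 20 at Tcf7l2. Members nearest to the integrin genes Itga2 and Itga9 held 30 and 31 reads in siChst7 against 23 and 21 in siControl, and 16 and 15 in siChst7 against 12 and 11 in siControl. They were 2 of 143 shared regions near integrin and laminin genes, of which 6 were ranked lower. Mafk, a small Maf factor, and Runx1, a Runt factor, each had 1 member, with 43 and 32 reads in siChst7 against 28 and 28 in siControl, and 51 and 42 in siChst7 against 37 and 34 in siControl. They were 1 of 64 shared regions near AP-1 genes (0 ranked lower) and 1 of 67 near cartilage and bone genes (1 ranked lower).

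Listed heart genes were nearest to 4 members, a number near the share of all shared regions. They were 1 of 119 shared regions near cardiac transcription factor genes, 1 of 111 near sarcomere genes and 2 of 94 near cardiac ion handling genes, where 3, 1 and 3 regions were ranked lower. Hey2, a repressor expressed in ventricular muscle, was 75.9 kb from chr10:30918685-30919301, which held 27 and 20 reads in siChst7 and 17 and 14 in siControl. Pdlim5, a Z-disc protein gene, held chr3:142294959-142295624 with 42 and 38 reads in siChst7 and 31 and 28 in siControl. The calcium channel subunit genes Cacna2d1 and Cacnb2 were nearest to members with 23 and 17 reads in siChst7 against 14 and 12 in siControl, and 39 and 36 in siChst7 against 25 and 26 in siControl. The siChst7 counts were above the siControl counts at the 4 sites, as the choice of members favours. Near Mef2c, Gata4, Tbx5 and Myh6 there were 6, 6, 1 and 2 shared regions, of which 0 were members and 1, near Mef2c, was ranked lower. The 10 other lists with 0 members held 18 (immune cells) to 111 (inflammation and interferon) shared regions each, too few to tell 0 from the share of all shared regions. Regions ranked lower were 5 of 50 near adipogenic genes, 3 of 40 near neural genes and 2 of 50 near housekeeping genes. They were 2 of 100 near cell cycle genes and 2 of 111 near inflammation genes. Near endothelial genes they were 1 of 72, and near cardiac secreted and metabolic genes 1 of 49. They were 0 of 29 near skeletal muscle, 0 of 43 near epithelial and epicardial, and 0 of 18 near immune genes. Of all shared regions 2.66% were ranked lower, and these small counts were not tested against that share.

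Most fibroblast marker genes had a shared region at an end. A shared region lay within 1 kb of an end of 11 of 13 fibroblast marker genes, the exceptions being Pdgfra and Prrx1. The count was 3 of 7 for cardiomyocyte, 0 of 4 for endothelial, 1 of 3 for immune, 1 of 3 for epithelial and 0 of 3 for skeletal muscle markers. The same share over all protein-coding genes was not taken. On a narrower measure, shared regions touched the promoter window of 8940 of the 17274 protein-coding genes with a window. No cell identity is read from these small sets. Of the 13 fibroblast markers, Col1a2 and Ddr2 were nearest to a member, and of the markers of other cell types, which were fewer for each type, 0 were. In the longer fibroblast identity list, 2 of 176 shared regions (1.14%) were members, near the 1.04% of all shared regions. These counts therefore do not set fibroblast markers apart.

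Members were spread thinly over genes. The genes with an end nearest to a member, within 100 kb, numbered 454, and 14 of them were nearest to more than 1 member. Arid5b, a DNA-binding regulator gene, had 3 of its 21 shared regions among the members, all inside the gene. The first, chr10:68128367-68128894, held 66 and 60 reads in siChst7 and 41 and 40 in siControl. The second, chr10:68183856-68184489, held 28 and 23 reads in siChst7 and 14 and 17 in siControl. The last, chr10:68165214-68165600, held 122 and 110 reads in siChst7 and 110 and 98 in siControl, so there siChst7 replicate 2 and siControl replicate 1 were equal in raw reads, and the scaled values were 60.2 and 74.2 in siChst7 against 57.4 and 53.9 in siControl. None of the other shared regions of Arid5b was ranked lower.

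Among genes with 2 members, Arntl, which encodes the clock factor BMAL1, held chr7:113220680-113221244 and chr7:113183787-113184207, with 38 and 38 reads in siChst7 against 26 and 26 in siControl and 46 and 41 in siChst7 against 35 and 30 in siControl. Adamts16, a secreted metalloprotease gene, had a member 2.79 kb outside and another inside, chr13:70724223-70725011 and chr13:70729975-70730324, with 42 and 33 reads in siChst7 against 23 and 17 in siControl and 33 and 28 in siChst7 against 20 and 22 in siControl. These members lay 4.96 kb apart. The signal peptide peptidase gene H13 had chr2:152652746-152653245 with 57 and 38 reads in siChst7 against 25 and 29 in siControl, and chr2:152675197-152675801 with 99 and 72 in siChst7 against 64 and 64 in siControl. Hs1bp3, Arhgap17, Parn, Tmem44, Oxr1 and Marchf3 also had 2 members each, and their rank gaps ran up to 22.5. Arhgap17 and Oxr1 also had 1 region each ranked lower. Of the 454 genes, 62 were also nearest to a region ranked lower, which is 13.7% of them and 4.85% of the 1278 genes nearest to a region ranked lower. The same share over all genes nearest to a shared region was not taken, so nothing is read from this overlap.

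The threshold of 10 points cut through a continuous range. Just inside it lay a region 16.9 kb from Lclat1, with percentiles of 68.0 and 69.3 in siChst7 and 58.0 and 49.2 in siControl, and regions near Zfp105 and Srebf1, all 3 with a gap of 10.01. Just outside it, with gaps of 9.99, lay regions near Cers6, Phka2 and Fam13c, the first with percentiles of 47.4 and 35.4 in siChst7 and 25 and 25.5 in siControl. The regions on both sides of the threshold had siChst7 percentiles above both siControl percentiles, and a gap of 5 points would have kept 1809 regions.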

How the data were processed

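Per the labels, 2 siChst7 and 2 siControl libraries of 1 fibroblast line were sequenced as paired reads of 75 bp with a target of 50 M reads per library, from about 250000 cells each. Tools listed in the submitters' processing notes are MACS3, Bowtie, bedtools, HOMER and SAMtools, on build mm10. Their versions and settings are not stated there. Each deposited file is the peak list of 1 library, called without pooling. The deposited score is a whole number for each peak, the deposited fold enrichment is a ratio of the summit to its local background, and the deposited −log10 p-value and −log10 q-value belong to the summit. The lowest −log10 q per library lay just above 2, that is a q-value of 0.01. These are the authors' values for single peaks and were used to rank and describe peaks within a list. Read totals are unknown from these files, so the counting intervals rest on the recovered reads alone and cover counting error only.

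From these files, peaks on chromosomes 1 to 19 and X were merged at 1 bp of overlap, and percentiles were taken over each library's 66079 to 74304 (siChst7) and 73806 to 75593 (siControl) peaks. Reads under a summit (k) and the local background (b) were recovered from fold = (k + 1)/(b + 1) and the Poisson upper tail, with a tolerance of 0.001, and scaled by the lowest background of the library. These steps were tested on simulated data. The reads there were made with the same formulas and with backgrounds lower than those of some members, so only the arithmetic was checked. Distances run to the nearer end of 21631 protein-coding genes in RefSeq for GRCm38.p6 (mm10), and promoter sequences are from RefSeq on that assembly. Python 3.11.15, numpy 2.4.6, pandas 2.3.3, scipy 1.17.1 and matplotlib 3.10.9 were used.

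The members, gene lists and alternatives were chosen with earlier results of these data known. The regions named are the 12 with the largest gap, the 8 with the largest gap within 1 kb of a protein-coding gene end, members nearest to a listed gene within 100 kb, up to 10 genes with at least 2 members in order of member number and gap, and 3 regions on each side of the threshold. Nab1 was added for contrast after its values were seen. No genome sequence was used, so the sequences of distal regions are not analysed here.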

Additional observations from a re-analysis of the deposited data

How the results depend on the processing

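Depth limits these regions: the median member held 38 and 31 reads in siChst7 and 24 and 23 in siControl, and each group has 2 libraries. Ranking by −log10 p left the 580 members as they were. The number of members was 1225 with percentiles over shared regions only and 1368 at equal list length, holding 474 and 460 of the 580, and it was 1809, 149 and 44 at gaps of 5, 15 and 20 points. Leaving out each library in turn gave 1228 to 3056 members, since a smaller set of libraries is easier to pass, with siChst7 replicate 2 the library whose absence gave 3056. The replicate block, in which each siChst7 library had to exceed the siControl library of the same number by 10 points, gave 979 members. The deviations of same-numbered libraries from their group means had a correlation of -0.0037 over 55907 regions, so same-numbered libraries did not deviate together in rank. Whether they were prepared together cannot be told from this value.

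The share of members within 1 kb of a gene end was 3.62% as reported, 5.64% at a gap of 5 and 2.01% at a gap of 15, and ran from 5.13% to 5.59% without each library in turn. In windows of 0.5, 2 and 5 kb it was 2.24%, 6.90% and 13.3%, against 19.2%, 26.2% and 34.9% of all shared regions, and it was 9.83% against 27.8% when noncoding genes of the table were included. It stayed below the share of the regions ranked lower in each of these windows. The share of members with a higher fold enrichment in both siChst7 libraries, 99.8%, was 100% when fold was ranked and at gaps of 15 and 20, 98.6% over shared regions only, 98.8% at equal list length, 98.2% at a gap of 5 and 94.99% under the replicate block, and 63.3% to 76.4% without each library in turn.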
